A study of Caenorhabditis elegans with 2 samples.

Results

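The 33 proteasome subunit genes of Caenorhabditis elegans were examined in ChIP-seq of the C34B4.2 protein in first-stage (L1) larvae. They are the protein-coding genes of Ensembl WBcel235 named pas-, pbs-, rpt- or rpn- with a number, out of 19973 protein-coding nuclear genes. The 14 pas- and pbs- genes encode the 20S core and the 19 rpt- and rpn- genes the 19S cap. ChIP-seq reads the DNA fragments that come down with a crosslinked protein, and peaks are the positions where such fragments gather. Both samples were whole larvae of mixed sex from strain OP552, which carries unc-119(tm4063) and the transgene wgIs552, taken 6 h after synchronization by starvation following bleaching. The transgene expresses C34B4.2 with a C-terminal GFP-FLAG tag. The immunoprecipitation used an antibody against GFP per the sample descriptions, although the antibody label names C34B4.2. The promoter of the transgene is not given in the labels, both samples carry it, and the strain of the control library is not known here. There were 2 biological replicates of this 1 group.

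The proteasome degrades proteins that carry chains of ubiquitin. Its barrel-shaped 20S core is built of rings of alpha subunits (pas- genes), which gate the entrance, and rings of beta subunits (pbs- genes), some of which cut the substrate. The 19S cap holds a ring of ATPases (rpt- genes) that unfold the substrate and non-ATPase subunits (rpn- genes) that bind ubiquitin, remove it and hold the cap together. In C. elegans the transcription factor SKN-1A raises the expression of proteasome genes when the proteasome is impaired.

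The data are lists of peaks ranked by the authors' signal value, with rank 1 the strongest. A list of 30000 candidates, most of them weak, exists for each replicate and for the replicates pooled, and 1 list of 267 peaks was thresholded for repeatability between the replicates. The thresholded peaks were the first 267 of the pooled list, with signals of 112 to 868, while the pooled candidates had a median of 49.6 and a lowest signal of 39.5. The candidates of replicate 1 ranged from 24.7 to 428 and those of replicate 2 from 20.1 to 437. Signals are comparable within a list only. A gene was credited with a summit in the stretch that begins 1000 bp before and ends 200 bp after any of its transcript starts, called the window here.

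Thresholded peaks of C34B4.2 were rare at proteasome genes and at all protein-coding genes. Among the 33 genes, 1 had a thresholded summit in its window (3.03%, against 1.38% of all protein-coding genes), and this was pas-5, an alpha subunit of the core. None of the 19 cap genes had one. The second strongest member, rpn-2, ranked 730 in the pooled list, well below the threshold. The strongest 267 candidates of replicate 1 alone reached pas-5 and rpn-2 (6.06%, against 1.19% of all genes). Those of replicate 2 alone reached no proteasome gene, against 1.37% of all genes.

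The peak at pas-5 (10566350 to 10567300 on chromosome I, forward strand) had a pooled signal of 132 and rank 179. Its signal was 70.2 in replicate 1 (rank 203) and 57.6 in replicate 2 (rank 282), so the strong signal was present in both replicates. The pooled summit and that of replicate 1 lay on the same base, 919 bp upstream of the pas-5 start, and that of replicate 2 lay 999 bp upstream, at the edge of the window. The pooled summit fell inside the snoRNA gene F25H2.15 (10565266 to 10565443), whose product belongs to the small nucleolar RNAs that guide modification of other RNAs. No other protein-coding gene had this summit in its window. A separate candidate 22 bp downstream of the pas-5 start had a pooled signal of 44.9 and rank 20966, and a summit of replicate 2 lay 16 bp downstream with rank 23885. Signal next to the pas-5 start itself was thus among the weaker candidates.

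**Figure D1:**
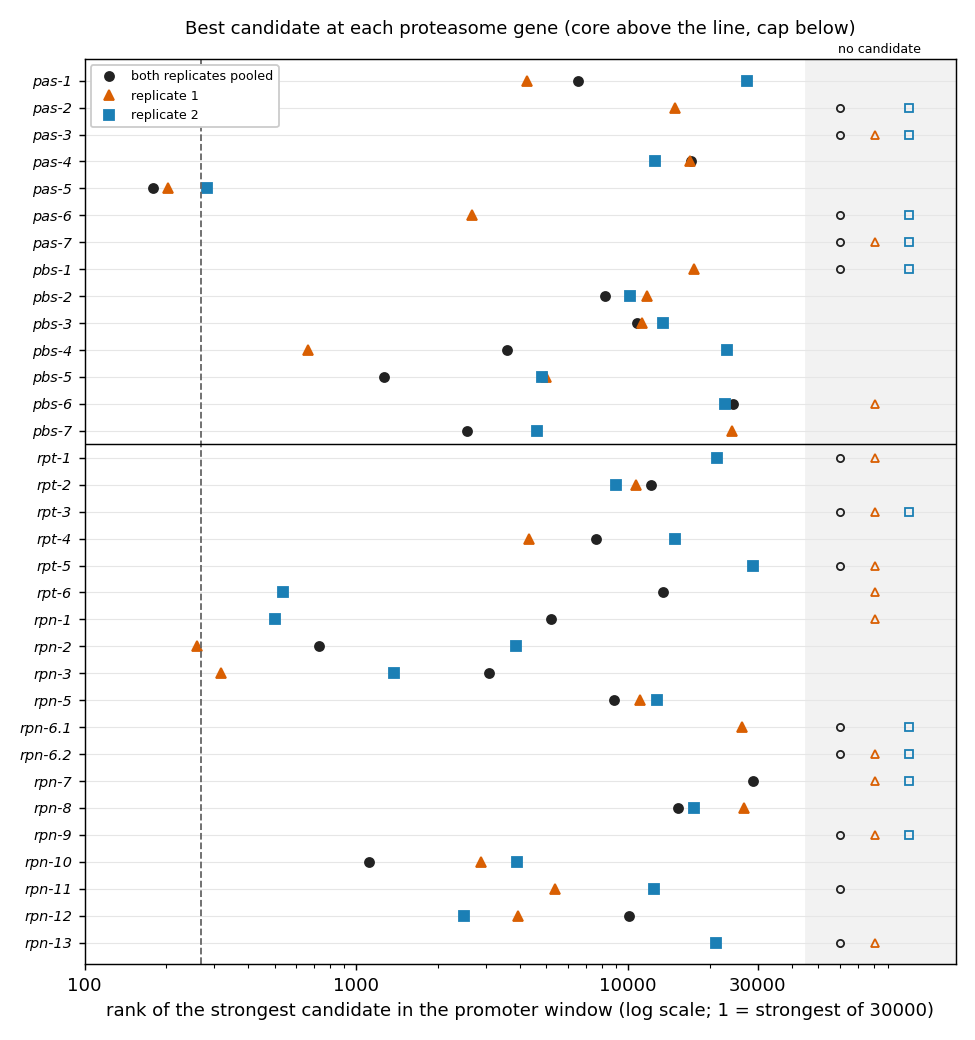
Rank of the strongest candidate in the window of each of the 33 proteasome genes, on a log scale, in the pooled list (circles), replicate 1 (triangles) and replicate 2 (squares). Open symbols in the grey area mark genes with no candidate in that list, the dashed line marks rank 267, and pooled values left of it are thresholded: only pas-5 lies there.

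In the full window, candidates were more frequent at proteasome genes than at all genes. At rank 1000 or better this rests on 2 members, pas-5 and rpn-2. A pooled candidate of any rank lay in the window of 20 of 33 members (60.6%), against 38.1% of all protein-coding genes. Replicate 1 had a candidate at 21 members (63.6%, against 38.2%) and replicate 2 at 23 (69.7%, against 38.3%). A pooled rank of 1000 or better was reached by 2 members (6.06%, against 3.03%), a rank of 3000 or better by 5 (15.2%, against 6.34%) and a rank of 10000 or better by 12 (36.4%, against 16.5%). Among genes with a pooled candidate, the median of the strongest signal was 57.7 for the members and 52.2 for all genes, with quartiles of 52.1 and 69.6 against 45.4 and 63.0. The members' windows covered 1314 bp on average against 1459 bp for all genes. Among genes with a single start, 16 of 25 members (64.0%) had a pooled candidate, against 32.7% of all such genes. These differences from all genes were not tested.

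The count depended on summits far from the start. From 500 bp upstream to 100 bp downstream, 8 of 33 members had a pooled candidate (24.2%), close to the 21.7% of all genes. These were pas-1, pas-5, pbs-2, rpt-6, rpn-2, rpn-3, rpn-7 and rpn-10. Of the 20 members with a pooled candidate in the full window, 12 (60.0%) had the strongest summit more than 500 bp upstream, against 37.5% of all genes with one. The median strongest summit lay 654 bp upstream of the start in the members and 335 bp upstream in all genes.

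**Figure D2:**
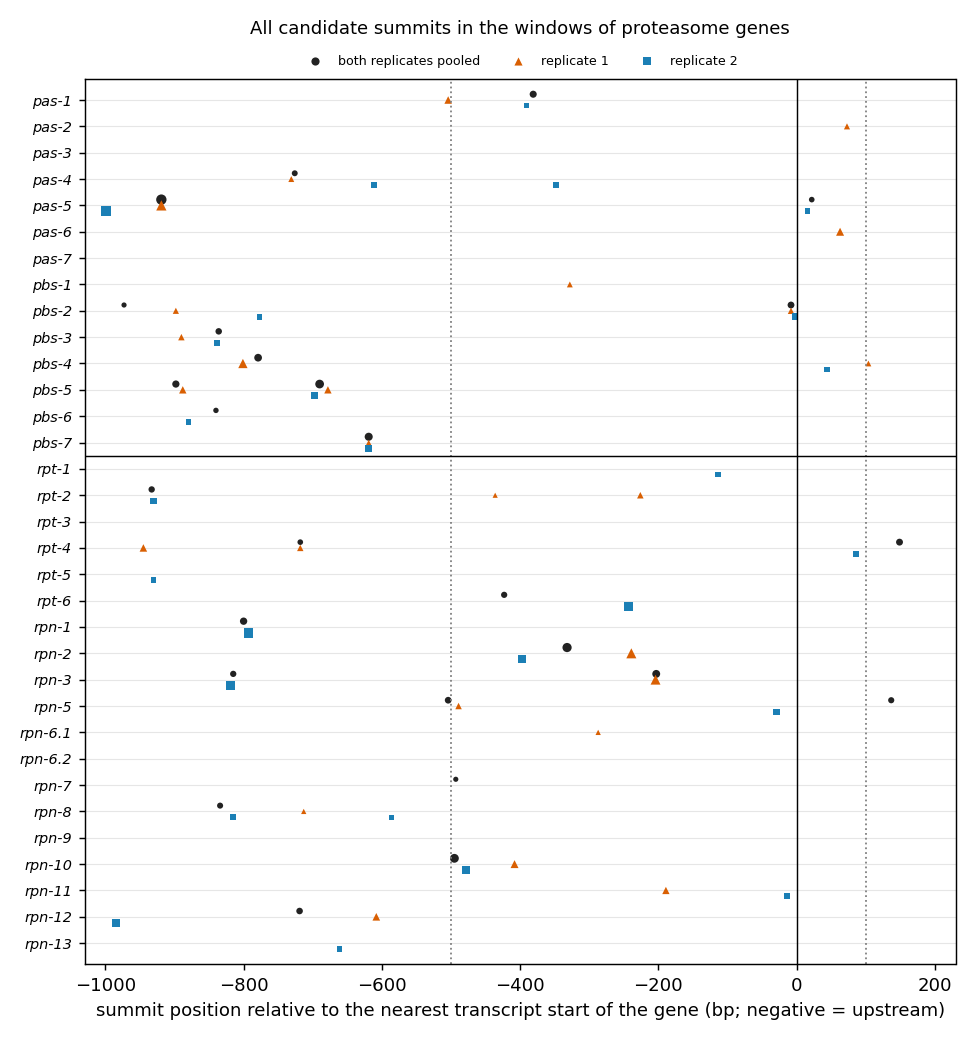
Position of every candidate summit in the windows of the 33 genes relative to the nearest start of the gene, in bp, for the pooled list (circles), replicate 1 (triangles) and replicate 2 (squares), with larger symbols for better ranks. The dotted lines mark 500 bp upstream and 100 bp downstream, and in 12 of 20 members the strongest pooled summit lies left of the first.

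Many of these summits lay in neighbouring genes. The strongest pooled summit was in a coding exon of another gene at 10 of 20 members and in a coding exon of the member itself at rpt-4, which makes 55.0% in coding exons against 30.1% for all genes. A further 6 (30.0%) lay between protein-coding genes, against 43.6% of all genes with one. The summit of pas-5, inside the snoRNA gene F25H2.15, is counted among these 6. Introns held 2, in rpoa-12 beside pas-1 and in mrps-6 beside rpn-8, and the 5′ UTR of F49C12.9 held the one beside rpn-7. The member's own start was the nearest start of any protein-coding gene at 9 of 20 sites (45.0%), against 81.0% over all genes. The members lie close to other protein-coding genes, the only neighbours counted here. Within 1000 bp upstream, 20 of 33 have a divergent neighbour, which is the case for 17.2% of all genes. Another 9 have a neighbour on the same strand (27.8% of all genes), at gaps of 23 bp (pbs-3) to 504 bp (rpt-1). Whether those 9 have a promoter of their own was not tested. Of the 20 with a divergent neighbour, 12 had a pooled candidate, against 43.9% of all genes placed in this way. Of the 9 behind a neighbour on the same strand, 4 had one, against 37.7%. The 3 members with no protein-coding neighbour within 1000 bp upstream were pas-5, pbs-4 and rpt-6. All 3 had a pooled candidate, against 35.8% of all genes placed in this way. At pas-5 the snoRNA gene F25H2.15 lies within that distance and was not counted.

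Of the 7 alpha subunit genes, 3 had a pooled candidate (42.9%, against 38.1% of all genes), namely pas-5, pas-1 and pas-4. At pas-1 the pooled signal was 60.0 (rank 6549), 381 bp upstream in an intron of rpoa-12, a subunit of RNA polymerase I. The signal there was 41.3 in replicate 1, with the summit 504 bp upstream, and 20.8 in replicate 2, with the summit 391 bp upstream. The ranks of these 2 candidates, 4256 and 27416, were far apart. At pas-4 the pooled signal was 47.9 (rank 16980), with the summit in a coding exon of rpb-3, a subunit of RNA polymerase II, and also in the window of C36B1.14. The replicate signals at pas-4 were 30.1 and 26.7, with ranks of 16860 and 12496. At pas-2 and pas-6 only replicate 1 had a candidate, 73 and 63 bp downstream of the start, with signals of 31.2 and 44.8. The candidate at pas-6 ranked 2658 in replicate 1, the fifth best among the 21 members with one there, and replicate 2 had none. At pas-3 and pas-7 no list had a candidate in the window.

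Of the 7 beta subunit genes, 6 had a pooled candidate (85.7%, against 38.1% of all genes). The strongest was at pbs-5, which encodes the beta subunit with chymotrypsin-like activity, with a pooled signal of 79.8 and rank 1262. The pooled summit lay 690 bp upstream, in a coding exon of K05C4.2 and 188 bp downstream of the start of that gene. The signal there was 39.7 in replicate 1 (rank 5224) and 33.0 in replicate 2 (rank 4828), similar in rank. A second pooled candidate 898 bp upstream (61.6, rank 5702) had a candidate of replicate 1 near it (40.1, rank 4979) and none of replicate 2. At pbs-7 the pooled signal was 71.1 (rank 2562), and the summits of all 3 lists lay on the same base, 619 bp upstream in a coding exon of F39H11.1. There the signal was 26.8 in replicate 1 (rank 24063) and 33.2 in replicate 2 (rank 4607), so the better rank was in replicate 2. At pbs-4 the pooled signal was 67.2 (rank 3569), 779 bp upstream and between genes. It came with a signal of 55.5 in replicate 1 (rank 665, 801 bp upstream), while the only candidate of replicate 2 lay 44 bp downstream with 22.3 (rank 22993). Replicate 2 thus listed no candidate at the pooled site of pbs-4.

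At pbs-2, which encodes the beta subunit with trypsin-like activity, the pooled summit lay 8 bp upstream of the start, closer than at any other member's strongest summit. Its pooled signal was 57.2 (rank 8186), and the replicate signals were 33.3 and 28.2 with summits 8 and 2 bp upstream. The summit also lay in the window of eif-6, a translation initiation factor gene on the other strand, 658 bp upstream of it. At pbs-3 the pooled signal was 53.9 (rank 10791), in a coding exon of ulp-2, a SUMO protease gene, with replicate signals of 33.6 and 26.2. At pbs-6 the pooled signal was 42.7 (rank 24310), in a coding exon of cids-1, with 22.4 in replicate 2 and no candidate in replicate 1. Its summit was also in the window of C02F5.3. At pbs-1, the beta subunit with caspase-like activity, only replicate 1 had a candidate (29.8, rank 17504).

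Of the 6 ATPase genes of the cap, 3 had a pooled candidate and none had a pooled rank better than 7641. That rank belonged to rpt-4, with a signal of 58.1 and the summit 149 bp downstream of a start, inside its own coding exon and 394 bp upstream of nfyc-1, a subunit of the transcription factor NF-Y. Its replicate signals were 41.2 and 25.5, but their summits lay 1031 bp apart, 945 bp upstream and 86 bp downstream. At rpt-2 the pooled signal was 52.4 (rank 12079), in a coding exon of the clathrin adaptor gene aps-1 and in the window of picc-1. Replicate 1 had 34.1 at rpt-2 and replicate 2 had 29.0, with summits 226 and 930 bp upstream. At rpt-6 the pooled signal was 51.1 (rank 13402), 423 bp upstream and in the window of the histone gene his-72. The candidate of replicate 2 at rpt-6 was much stronger in rank, with 48.2 (rank 539) at 243 bp upstream, and replicate 1 had none. At rpt-1 and rpt-5 only replicate 2 had a candidate, with signals of 22.9 and 20.4, and at rpt-3 no list had one.

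Of the 13 non-ATPase genes of the cap, 8 had a pooled candidate (61.5%, against 38.1% of all genes). The strongest was at rpn-2 (6199184 to 6202594 on chromosome III, forward strand), which encodes a large scaffold subunit of the cap base. Its pooled signal was 87.6 (rank 730), with the summit 332 bp upstream and between genes, also 438 bp upstream of C23G10.7 on the other strand. The signal was 66.5 in replicate 1 (rank 260) and 34.3 in replicate 2 (rank 3853), with summits 239 and 397 bp upstream. The replicates thus placed their summits 158 bp apart, on either side of the pooled one. At rpn-3, a lid subunit, the pooled signal was 69.1 (rank 3072), with the summit 203 bp upstream and 241 bp upstream of hsp-110, a chaperone gene on the other strand. The ncRNA gene C30C11.14 lay 55 bp from it. Replicate 1 had 63.1 there (rank 318), while the candidate of replicate 2 (40.8, rank 1374) lay 819 bp upstream in hsp-110. A second, weaker pooled candidate (51.6, rank 12902) lay 4 bp from that summit of replicate 2.

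At rpn-1, the other large scaffold subunit, the pooled signal was 62.8 (rank 5180), 800 bp upstream and 30 bp downstream of the start of ribo-1, an oligosaccharyltransferase subunit gene. Replicate 2 had 49.0 there (rank 503) and replicate 1 had no candidate in the window. The better rank was thus in replicate 1 at rpn-2 and rpn-3, and in replicate 2 at rpn-1 and rpt-6.

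These windows of 101 bases centred on the pooled summit are shown because the 5 sites were the strongest in the pooled list outside the chromosome that carries pas-5. The stronger sites on that chromosome, at pas-5, rpn-10, pbs-5, pbs-7 and pbs-4, are not printed here. They are written on the strand of the gene in ce11, from RefSeq's genome, with the 11 bases around the summit in capitals. The window at rpn-2 spans chrIII:6198802-6198902, that at rpn-3 chrIII:8447100-8447200, that at rpn-1 chrIV:6910663-6910763, that at pas-1 chrV:14422949-14423049 and that at rpt-4 chrII:43463-43563. Their GC content was 48.5%, 42.6%, 48.5%, 36.6% and 38.6%.
rpn-2: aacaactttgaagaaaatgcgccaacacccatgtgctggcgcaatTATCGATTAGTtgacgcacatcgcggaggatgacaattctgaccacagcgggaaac
rpn-3: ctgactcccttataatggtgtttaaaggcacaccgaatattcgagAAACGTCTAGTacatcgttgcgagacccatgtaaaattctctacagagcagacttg
rpn-1: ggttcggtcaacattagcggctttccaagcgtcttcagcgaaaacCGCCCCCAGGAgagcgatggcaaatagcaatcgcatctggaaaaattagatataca
pas-1: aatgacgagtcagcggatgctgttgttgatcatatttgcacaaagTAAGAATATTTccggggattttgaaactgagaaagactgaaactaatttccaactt
rpt-4: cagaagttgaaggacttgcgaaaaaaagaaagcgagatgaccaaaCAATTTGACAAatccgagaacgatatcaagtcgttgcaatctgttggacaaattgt

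Over the 20 strongest member summits, GC content within 50 bp was 41.0% ± 5.75 (SD, n = 20), next to 39.8% ± 7.95 (SD, n = 30000) for all pooled candidates and 48.8% ± 7.49 (SD, n = 267) for the thresholded peaks. The n here counts sites of the same pooled library, not animals.

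Among the ubiquitin receptors and deubiquitinating subunits, rpn-10 encodes a receptor for ubiquitin chains and had a pooled signal of 81.7 (rank 1114), the third best rank of all members. Its summit lay 495 bp upstream in a coding exon of mrpl-9, a mitochondrial ribosomal protein gene. The replicate signals were 44.3 and 34.2 (ranks 2866 and 3899), with summits 408 and 478 bp upstream. At rpn-11, the deubiquitinase of the lid, the pooled list had no candidate in the window. Replicate 1 had 39.5 at 189 bp upstream and replicate 2 had 26.8 at 14 bp upstream. Each distance counts from the nearest of the 2 starts of rpn-11, and the 2 summits lay 391 bp apart. A pooled candidate of rank 718 with a signal of 87.9 lay 228 bp downstream of the nearest start of rpn-11, in its coding exon and just outside the window. At rpn-13, whose counterparts in yeast and mammals are ubiquitin receptors, only replicate 2 had a candidate (22.9, rank 21044).

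The other lid genes had pooled ranks of 8877 or worse, or no pooled candidate. At rpn-5 the pooled signal was 56.2 (rank 8877), in a coding exon of the cohesin gene scc-1, with 33.7 and 26.6 in the replicates and their summits 593 bp apart. At rpn-12 it was 54.7 (rank 10079), in a coding exon of rad-23, which encodes a shuttle of ubiquitinated proteins to the proteasome. The replicate signals at rpn-12 were 42.0 and 37.0 (ranks 3921 and 2498), both ahead of the pooled rank, with summits 376 bp apart. At rpn-8 the pooled signal was 49.4 (rank 15226), also in the window of R12E2.11, with 25.8 and 24.3 in the replicates. At rpn-7 it was 40.2 (rank 28666), near the end of the list, with no candidate in either replicate. At rpn-6.1, a scaffold of the lid, only replicate 1 had a candidate (26.0, rank 26205). At rpn-6.2 and rpn-9 no list had one.

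In all, 5 of 33 members (15.2%) had no candidate in the pooled list or in either replicate, against 43.4% of all genes. For the 13 members with no pooled candidate in the window, the nearest pooled summit lay 205 bp (pas-6) to 4299 bp (rpn-6.1) from the start, on the downstream side. For the 6 of them with a summit within 1000 bp, the window itself sets that side, since it reaches 1000 bp upstream and only 200 bp downstream. For rpt-1 it was a thresholded peak (rank 207, signal 125) 2115 bp downstream, between protein-coding genes and 559 bp upstream of snr-4. For pbs-1 it ranked 351, with a signal of 103, in the 3′ UTR of K08D12.4, at 1119 bp.

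**Figure D3:**
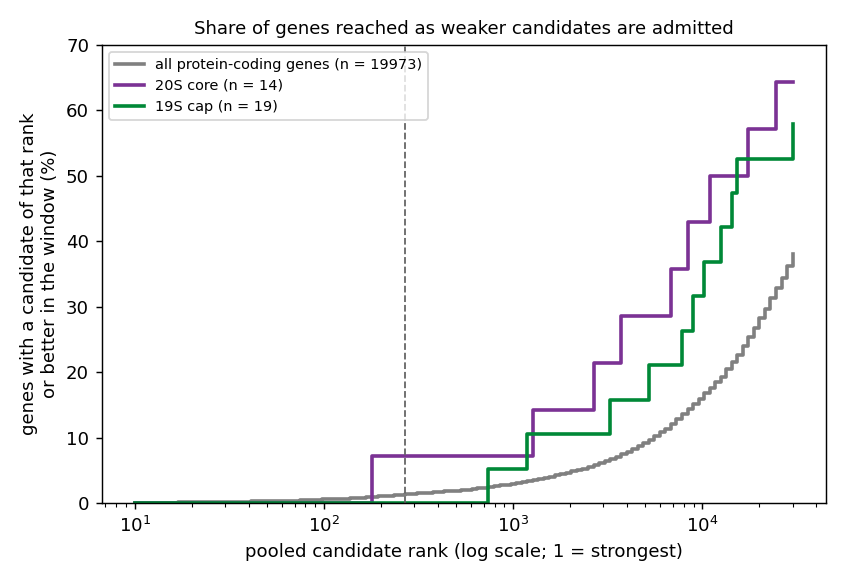
Percentage of genes with a pooled candidate of a given rank or better in the window (rank on a log scale) for the 14 core genes, the 19 cap genes and all 19973 protein-coding genes. The dashed line marks rank 267, and at rank 30000 the lines reach 64.3%, 57.9% and 38.1%.

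Core and cap genes had pooled candidates at similar shares, with 9 of 14 core genes (64.3%) and 11 of 19 cap genes (57.9%). The share of all genes was 38.1%. Replicate 1 had candidates at 11 core genes (78.6%) and 10 cap genes (52.6%), against 38.2% of all genes. Replicate 2 had them at 9 core genes (64.3%) and 14 cap genes (73.7%), against 38.3%. The order of core and cap thus differed between the replicates. The median of the strongest pooled signal was 60.0 in the core (quartiles 53.9 and 71.1, n = 9 genes) and 56.2 in the cap (quartiles 51.7 and 65.9, n = 11 genes). In replicate 1 the medians were 33.6 in the core and 40.3 in the cap, and in replicate 2 they were 26.7 and 27.9. The core was thus the higher in the pooled list and the lower in both replicates. With 1 group and genes as the units, this difference was not tested. The best pooled ranks were 179 in the core and 730 in the cap. Of the strongest core summits, 7 of 9 lay more than 500 bp upstream (77.8%), and of the cap summits 5 of 11 (45.5%).

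Both replicates had a candidate in the window at 17 of 33 members (51.5%, against 21.8% of all genes), 8 of them core and 9 cap genes. Summits of both replicates within 100 bp of each other were found at 7 members (21.2%, against 11.1% of all genes), namely pas-5, pbs-2, pbs-3, pbs-4, pbs-5, pbs-7 and rpn-10. Among genes with a candidate in both replicates, close pairs were found at 7 of 17 members (41.2%) and at 51.0% of all 4352 such genes. Of these, 6 were among the 14 core genes (42.9%) and 1 among the 19 cap genes (5.26%), which is 6 of 8 core genes (75.0%) and 1 of 9 cap genes (11.1%) with a candidate in both replicates. Most of the core genes with a close pair encode beta subunits: 5 of the 7 pbs- genes had such a pair, against 1 of the 7 pas- genes. At pbs-4 the close pair, 60 bp apart, was of weak candidates near the start and not at the pooled summit. The pooled summit had a candidate of each replicate within 100 bp at 7 of 20 members (35.0%), against 29.0% of all genes with one, and rpn-2 took the place of pbs-4 among them. Among the 17 members, the median log2 ratio of the strongest signals, replicate 1 over replicate 2, was 0.34 (SD 0.39), next to 0.28 (SD 0.45) over all 4352 such genes. The scales of the replicate lists may differ, so no direction is read from this ratio.

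**Figure D4:**
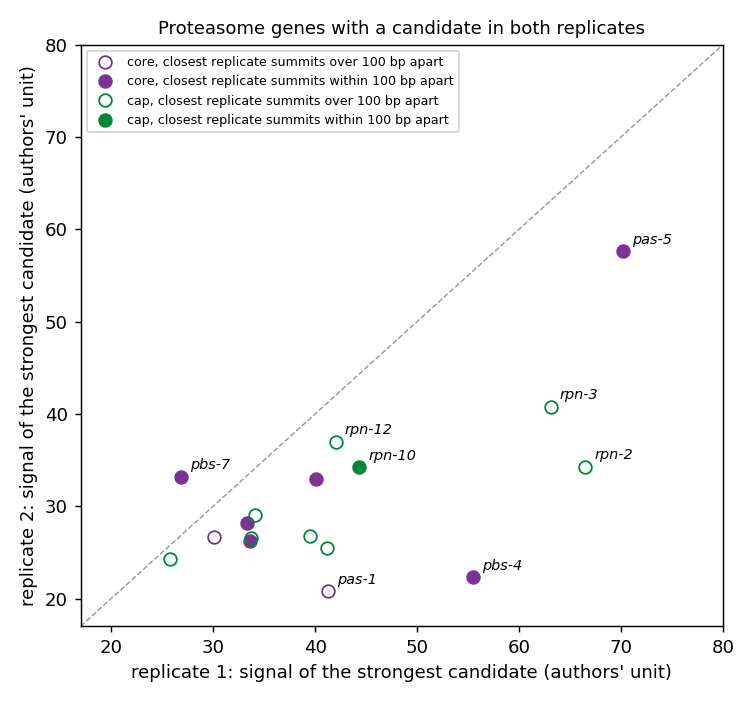
Signal of the strongest candidate in the window in replicate 1 and replicate 2, in the authors' unit on each list's own scale, for the 17 members with a candidate in both. Filled circles are genes with a pair of replicate summits within 100 bp and the dashed line marks equal numbers: pas-5 is highest in both replicates.

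The members are spread over 5 of the 6 nuclear chromosomes. Chromosome I carries 10, of which 8 had a pooled candidate (42.9% of all its genes did), and the X chromosome carries none. On chromosome III it was 4 of 8 members against 45.3%, on II 4 of 7 against 35.3%, on IV 2 of 3 against 38.8% and on V 2 of 5 against 36.2%. Of the members with a pooled rank of 5000 or better, 5 lie on chromosome I (pas-5, pbs-4, pbs-5, pbs-7 and rpn-10) and 2 on chromosome III (rpn-2 and rpn-3). Over all chromosomes, 9.19% of all genes had a pooled candidate of rank 4877 or better. That share was not computed by chromosome, so no clustering is read from these counts.

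Words seen often at the thresholded peaks were searched in proteasome promoters and at the members' summits, and differences from all genes were not tested. ACGCAG and GACGCA, which share their central bases, were chosen because earlier work on these data found them at the thresholded summits. In the 300 bp from 250 bp upstream of the outermost start, ACGCAG occurred on either strand in none of the 33 member promoters and in 8.23% of all promoters. GACGCA occurred in 1 (3.03%), that of pas-2, and in 8.78% of all. Within 50 bp of the strongest pooled summits, ACGCAG was found at 1 of 20, that of rpn-7, against 2.85% of all pooled candidates and 18.0% of thresholded peaks. GACGCA was found at 1 of 20, that of rpn-2, against 2.98% and 19.5%, and starts at base 58 of the rpn-2 window printed above.

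SKN-1 is known to bind a family of related words, and AATATCAT, AATGTCAT, ATTATCAT, ATTGTCAT, TATATCAT, TATGTCAT, TTTATCAT and TTTGTCAT were searched on both strands. One of them occurred in the same promoter interval at 11 of 33 members (33.3%), 4 of them core genes, and in 16.5% of all promoters. Within 50 bp of summits, such a word was found at 1 of 20 members, at bases 75 to 82 of the rpn-2 window, and at 4.26% of all pooled candidates and 3.75% of thresholded peaks. Of the 11 promoters with a word, 7 belong to genes with a pooled candidate, which 20 of all 33 members (60.6%) had. Those of pas-2, pas-6, pbs-1 and rpn-11 belong to genes without one. Whether words and candidates go together was not tested. A match is a run of letters and not a measured binding site of SKN-1, which was not assayed here.

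The sites are shown because proteasome genes are known targets of SKN-1A. Each is 30 bases on the strand of the gene in ce11, from RefSeq's genome, with the word in capitals, which reads as its reverse complement where it lies on the other strand.
pas-2: cagttcgaatgATGACAATttcaccgggtt
pas-6: tactcgcttatTTTGTCATcctttcaaatt
pbs-1: attgagatttgATGACAATgttttttctgc
pbs-6: attaattgaatTTTGTCATattgaatattt
rpn-11: cgtaccccgcaATTGTCATcctcacaattt
rpn-12: gacctgccagaATTGTCATtgtgtcgattt
rpn-2: tttggacgaaaTTTGTCATtcgcaatcatt
rpn-5: cctgagaaaacATGATAAAagagcaaaaac
rpt-2: agcgcgcttgcATTGTCATcatcaacgctg
rpt-6: tctccggttgaAATATCATcatttttaaag

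The position of the first capital relative to the outermost start was 111 bp upstream at pas-2, 196 at pas-6, 145 at pbs-1, 56 at pbs-6, 123 at rpt-2, 196 at rpt-6, 232 at rpn-2, 219 at rpn-5 and 136 at rpn-12, and 24 bp downstream at rpn-11. The word at rpn-8 lay 216 bp upstream and its sequence is not printed here. The pooled summits in these windows lay 100 bp (rpn-2) to 810 bp (rpt-2) from the word listed here. At rpn-2 this word is not the ATGACAAT at bases 75 to 82 of the summit window, which starts 24 bp from the pooled summit. Some replicate summits lay closer to the listed word, with that of replicate 1 at rpn-2 (rank 260) 7 bp and that of replicate 2 at rpt-6 (rank 539) 47 bp from it. At rpt-2 a summit of replicate 1 (rank 10644) lay 103 bp from the word, and at rpn-11 one of replicate 2 (rank 12439) lay 171 bp from it.

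Genes of the wider ubiquitin pathway were examined in the same way, on a list chosen with earlier results of these data known. Its shares are therefore not independent of those results. The list holds ubiquitin, the activating enzyme, ligase components, deubiquitinases, the segregase CDC-48 and its cofactors, and SKN-1A with the enzymes DDI-1 and PNG-1 that process it, and 28 of 29 symbols matched. Of the 28 genes, 12 had a pooled candidate (42.9%, against 38.1% of all genes) and 9 had one in both replicates (32.1%, against 21.8%). A thresholded summit was found at 1 (3.57%, against 1.38%), cdc-48.1, with a pooled signal of 417 (rank 14) at 158 bp upstream and signals of 185 and 236 in the replicates. This was higher than at any of the 33 subunit genes. At skn-1 the pooled signal was 72.4 (rank 2278), 95 bp downstream of a start, with 51.5 and 37.0 in the replicates. At usp-14, a deubiquitinase of the proteasome, it was 74.0 (rank 2001), in a window shared with vnut-1, with 61.9 and 33.8. At aip-1, a proteasome-associated factor induced by arsenite, it was 69.6 (rank 2930), in a window shared with ddx-17, with 50.8 and 28.7. The genes ddi-1 and png-1 had no candidate in any list.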

How the data were processed

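Each peak carries a signal value in its seventh column, which the authors deposited with no stated unit or depth normalization, and a summit offset in bases. Per the descriptions deposited beside the lists, the candidate lists are peaks and background regions made from the alignments and a control alignment to feed the irreproducible discovery rate (IDR) procedure. The aligner and peak caller are not given in the sources consulted and read depth is unknown, so no counting interval could be given. The ce11 lists were used and the ce10 lists were not. Their chromosome names matched the WBcel235 assembly, and 0 peaks extended beyond the sequence.

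Genes and transcript starts came from Ensembl release 115, and sequence came from RefSeq's WBcel235 genome. Summits were placed at the deposited start plus the offset plus 1, and peaks were ranked by signal within each list with Python 3.11.15 and NumPy 2.4.6. Signals of different lists may differ in scale, so ranks are given beside them. The assignment was tested on simulated summits. With 1 group of 2 replicates there was nothing to compare over samples, so no test was made and no p-value is given. Shares over all protein-coding genes stand beside those of the members. The members and lists were chosen with earlier results of these data known. All members are named, with the protein-coding genes that share their strongest summit. Members of the ubiquitin pathway list are named where they had a thresholded summit or a pooled rank of 3000 or better, and any other gene named was picked with its values in view. Alternatives varied the window, the starts, the assignment, the list and the replicate used.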

Additional observations from a re-analysis of the deposited data

How the results depend on the processing

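Of 62 alternative values, 40 stayed close to those reported, which means within 1.5 times for a count and within the SD of the replicates' medians (4.88 in the core, 8.82 in the cap) for a median. Among these, the members with a pooled candidate ranged from 16 (48.5%, nearest start only, against 34.2% of all genes) to 26 (78.8%, 1000 bp to either side, against 53.5%). From 500 bp upstream to 100 bp downstream, the members with a thresholded summit fell to 0, against 1.06% of all genes. Members with a pooled candidate fell there to 8 (3 core and 5 cap), and those with candidates of both replicates to 5 (15.2%, against 9.72% of all genes). The cap median was 69.1 in that window, and the ubiquitin pathway count of 5 (17.9%) was below the 21.7% of all genes, while the reported count was above its background. With 1000 bp to either side, 28 members had candidates of both replicates (84.8%, against 36.0%) and 21 ubiquitin pathway genes a pooled one (75.0%, against 53.5%). Counting only the nearest start left 10 members with candidates of both replicates (30.3%, against 18.5%). With the strongest 10000 candidates, 12 members (6 of them cap) had a pooled candidate, 6 had one in both replicates (18.2%, against 6.65%), the core and cap medians were 69.1 and 65.9, and the ubiquitin count was 6 (21.4%, against 16.5%). With 1 replicate alone, members among the strongest 267 numbered 0 (replicate 2, against 1.37% of all genes) to 2 (replicate 1, against 1.19%). The core median then ran from 26.7 to 33.6 and the cap median from 27.9 to 40.3, on the scale of the replicate lists. These medians are not comparable with the pooled ones. The SD used for medians also holds any difference in scale between the replicate lists. Fewer candidates or a shorter window lower the counts by construction, and the cause of other changes was not tested. Read depth is unknown, so the precision of single signals is too.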
